A study of Mus musculus with 6 samples.

Results

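The dorsoventral axis of the retina and the enzymes that make and break down retinoic acid were followed through 10 genes in the embryonic mouse retina lacking Onecut1. They are the dorsal T-box factors Tbx2, Tbx3 and Tbx5, the ventral homeobox factors Vax1 and Vax2, the retinoic acid synthesis enzymes Aldh1a1, Aldh1a2 and Aldh1a3, and the breakdown enzymes Cyp26a1 and Cyp26c1. Of these, 9 genes have probe sets that map to them alone, 17 probe sets in all among the 45037 of the array that are not controls. Cyp26c1 has none and was not analysed here. A probe set was kept when its mean log2 signal was over 7 in OC1-KO or in WT retinas, which left 20888 probe sets, 11 of them for 7 of the genes. Tbx5, Aldh1a2, 1 of the probe sets of Vax1 and 2 of the 5 of Tbx3 lay below this filter.

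The arrays compare retinas of 3 Onecut1-deficient (OC1-KO) embryos with those of 3 WT embryos, with 1 Affymetrix mouse genome array per embryo and the embryos of each genotype numbered 1 to 3. The sample labels give the stage as E14 and the series title as E14.5. Both genotypes are on a mixed background, the line having been made with R1 ES cells in Swiss mice before some generations of crosses to C57Bl/6. The labels speak of littermates but do not say which embryos shared a litter. The whole retina was measured in bulk, so a loss of expressing cells and a loss of RNA per cell cannot be told apart.

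The vertebrate retina is patterned early along its dorsoventral axis. BMP signalling sustains the T-box factors dorsally, Vax factors act ventrally and in the optic stalk, and the opposing territories later guide the topographic wiring of ganglion cell axons. Retinoic acid is made by Aldh1a1 in the dorsal retina and by Aldh1a3 in the ventral retina, and Cyp26a1 and Cyp26c1 clear it from a band between these territories. Retinoic acid binds RAR and RXR nuclear receptors, which sit on direct repeats in the promoters of responsive genes, among them Cyp26a1 itself and the receptor gene Rarb.

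The 250 bases before the start of Cyp26a1 and of Rarb hold such a repeat and are shown for the element, in capitals, on which retinoic acid receptors are known to act. The search took AGGTCA or AGTTCA, and likewise GGGTCA and also GGTTCA, each followed by the same or another of these after 5 bases (DR5), on both strands. Such a pair occurs in 29 of 32851 RefSeq promoter stretches of this length, or 0.0883%. Among the members, 5 genes have promoter stretches in the RefSeq table, 6 in all, and Cyp26a1 alone has the element. The sequences are from GRCm38.p6, Cyp26a1 from chr19:37697558-37697807 on the plus strand and Rarb from chr14:16575477-16575726 on the minus strand, each printed 5′ to 3′ towards the start of the gene.
Cyp26a1: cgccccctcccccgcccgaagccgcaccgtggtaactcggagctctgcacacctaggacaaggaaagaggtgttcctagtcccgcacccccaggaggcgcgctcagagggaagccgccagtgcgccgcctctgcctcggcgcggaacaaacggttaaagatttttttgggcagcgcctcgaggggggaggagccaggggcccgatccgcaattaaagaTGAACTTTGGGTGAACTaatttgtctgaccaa
Rarb: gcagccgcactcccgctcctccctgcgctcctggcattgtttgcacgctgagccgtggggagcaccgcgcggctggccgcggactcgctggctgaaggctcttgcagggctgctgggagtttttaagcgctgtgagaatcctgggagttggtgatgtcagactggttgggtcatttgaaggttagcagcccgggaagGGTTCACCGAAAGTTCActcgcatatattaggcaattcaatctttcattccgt

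All 6 arrays carried the signals of retina, with 8 of 8 measured retinal markers over the filter, Atoh7 and Pax6 brightest. The embryos numbered 3 stood apart in markers of other tissues. Their arrays were also registered in the repository apart from all the others, and the labels name no batch. The summed signal of 10 lens genes was 235, 391 and 11732 for OC1-KO embryos 1 to 3. For the WT embryos it was 290, 268 and 25070. By mean log2 signal Cryba1 and Crygb were the brightest lens genes, though Crybb1 exceeded Crygb in the embryos numbered 3. The summed signal of 6 red blood cell genes, led by Hbb-y, was 69, 741 and 23983 in OC1-KO and 375, 125 and 16562 in WT. Both were thus far higher in the embryos numbered 3 of either genotype. That of 9 pigment epithelium genes was 564, 670 and 2228 in OC1-KO against 398, 364 and 900 in WT, higher in OC1-KO for each embryo number. Its 3 genes over the filter were all higher in OC1-KO, Dct by 0.62, Pmel by 1.40 and Mitf by 0.72 on the log2 scale. Each passed the filter only through its OC1-KO mean, the WT means being 6.74, 6.97 and 6.88. The direction of these 3 differences was thus fixed by the filter. Pmel and Mitf were higher for every embryo number, with unadjusted p of 0.0852 and 0.136 by limma and of 0.00258 and 0.00972 with the embryo number as a block. These p-values are of genes selected in that way and carry no weight of their own. The other 6, among them Rpe65, Tyr and Tyrp1, lay below the filter. Periocular mesenchyme genes summed to 630, 795 and 2712 in OC1-KO and 780, 633 and 3058 in WT, with only Col1a2 of 10 over the filter. All 5 ciliary margin genes were over it, Mab21l1 and Ccnd2 brightest, and summed to 4866, 5064 and 7985 in OC1-KO and 4564, 4611 and 7169 in WT. Of the endothelial list only Kdr was over the filter, and the other 5 genes lay below it. The endothelial sums of 1348 to 2312 in OC1-KO and 1283 to 2085 in WT are thus mostly the signal of Kdr. Of the macrophage list only Csf1r and C1qa were over the filter, with list sums of 897 to 1259 in OC1-KO and 930 to 1132 in WT. Onecut1 itself measured 9.02, 8.31 and 9.67 in OC1-KO and 9.25, 8.76 and 9.0 in WT on its brighter probe set. Whether it lies in the deleted sequence is not known here, and it therefore checks nothing about the knockout.

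None of the 11 member probe sets over the filter differed between OC1-KO and WT retinas at an adjusted p under 0.05 (limma, Benjamini-Hochberg over the 20888), and the background was 0% of all probe sets. At an unadjusted p under 0.05 limma had 0 of the 11, against 1.01% of all probe sets, and the methods' t-test also had 0, against 1.51%. With the embryo number as a block limma had 1, against 4.37%. In 0 of the 11 did the OC1-KO values lie wholly outside the WT values, against 3.56% of all probe sets. The differences ran from -0.52 to 0.90 on the log2 scale, 6 above 0, where 47.7% of all probe sets lay, and 5 below, with a median of 0.06 beside -0.01 over all probe sets kept. With 3 arrays in each genotype the smallest two-sided p of an exact permutation test is 0.1, and no member reached it. On their brightest probe sets Tbx2 and Tbx3 averaged slightly lower and Vax1 and Vax2 slightly higher in OC1-KO retinas. Each differed by less than limma without pairing could separate from the spread between embryos. Without OC1-KO 1 the differences were 0.07 for Tbx2, 0.01 for Tbx3, 0.29 for Vax1 and 0.17 for Vax2. With the embryo number as a block, limma gave unadjusted p of 0.569 for Tbx2, 0.121 for Tbx3, 0.115 for Vax1 and 0.187 for Vax2. It gave 0.889 for Aldh1a1, 0.363 for Aldh1a3 and 0.353 for Cyp26a1.

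**Figure D1:**
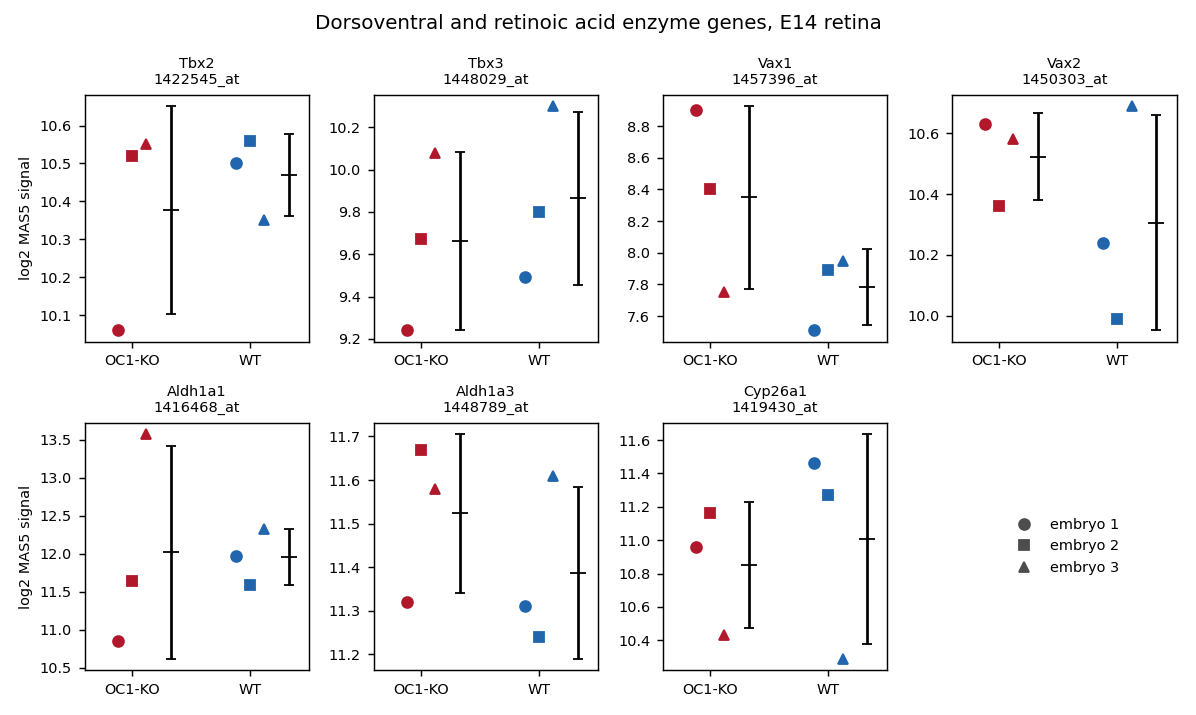
Log2 MAS5 signal of the 7 member genes with a main probe set over the filter, OC1-KO left of WT, each point 1 embryo with its number given by the marker and bars the mean and SD (n = 3 each, separate scale in each panel). OC1-KO and WT values overlap in every panel, and the Aldh1a1 signals of OC1-KO embryos 1 and 3 are the lowest and the highest of the 6.

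Tbx2, a T-box repressor that keeps dorsal identity downstream of BMP signalling, had log2 signals of 10.06, 10.52 and 10.55 in OC1-KO embryos 1 to 3 and 10.50, 10.56 and 10.35 in WT embryos 1 to 3. A single value stood low, that of OC1-KO 1, and the other 5 lay close together. The means were 10.37 ± 0.28 in OC1-KO and 10.47 ± 0.11 in WT (SD, n = 3 each), which differ by -0.09 with a 95% interval of -0.53 to 0.34 (limma, unadjusted p = 0.622). Without OC1-KO 1 the difference was 0.07.

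Tbx3, the closest relative of Tbx2 and also a repressor, has 5 probe sets of its own. On the brightest it measured 9.24, 9.67 and 10.08 in OC1-KO and 9.49, 9.80 and 10.30 in WT. In both genotypes embryo 1 was lowest and embryo 3 highest, so the groups overlapped although each OC1-KO embryo lay below the WT embryo of the same number. The difference was -0.20 (SE 0.29, interval -0.88 to 0.48, limma, unadjusted p = 0.512), and with the embryo number as a block the unadjusted p was 0.121. All 3 same-number differences were below 0 on 2 of the 11 member probe sets, both of Tbx3, against 13.1% of all probe sets, and above 0 on none, against 10.3%. The probe set 1437479_x_at, whose suffix marks probes that may cross-hybridise, ran from 9.35 to 10.10 in OC1-KO and from 9.59 to 10.10 in WT with the same order of embryos within each genotype.

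A dimmer probe set of Tbx3, 1445757_at, gave 7.35, 6.30 and 6.29 in OC1-KO and 7.71, 7.0 and 6.79 in WT. Here embryo 1 was the highest in each genotype, the reverse of the brightest probe set. It passed the filter only through its WT mean of 7.17 ± 0.48, the OC1-KO mean being 6.64 ± 0.61 (SD, n = 3 each). The difference of -0.52 (SE 0.36) had an unadjusted p of 0.195 by limma, and 0.00671 with the embryo number as a block, where the adjusted p was 1.00. This is the 1 member probe set below an unadjusted 0.05 in that fit. Without OC1-KO 1 the difference was -0.87 and without WT 1 it was -0.25.

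Vax1, which is known for its part in the optic stalk and ventral retina, showed the largest difference among the 7 main probe sets. Its signals were 8.90, 8.40 and 7.75 in OC1-KO and 7.51, 7.89 and 7.95 in WT. OC1-KO 1 and OC1-KO 2 lay above all WT embryos, whereas OC1-KO 3 lay between WT 1 and WT 2. The means of 8.35 ± 0.58 in OC1-KO and 7.78 ± 0.24 in WT (SD, n = 3 each) gave a difference of 0.57 or 1.48-fold, with an interval of -0.15 to 1.29. By limma the unadjusted p was 0.102 and the adjusted p 1.00, and the exact permutation test gave p = 0.3. By embryo number the differences were 1.39, 0.52 and -0.20. Without OC1-KO 1 the difference was 0.29, and in the embryos numbered 1 and 2 alone it was 0.95 (limma, unadjusted p = 0.0142).

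The other Vax1 probe set, 1421774_at, did not carry this pattern. It gave 5.15, 5.37 and 4.86 in OC1-KO and 5.67, 4.30 and 5.90 in WT, all below the filter, with a difference of -0.16 (SE 0.47). The Vax1 promoter is shown because Onecut factors are known to recognise ATTGAT or ATCGAT, and of the 6 member stretches this is the only one with either, searched on both strands. The match, read on the opposite strand, is in capitals, and 7.4% of all RefSeq promoter stretches of this length hold such a core. The stretch is chr19:59170398-59170647 of GRCm38.p6 on the minus strand, printed 5′ to 3′.
Vax1: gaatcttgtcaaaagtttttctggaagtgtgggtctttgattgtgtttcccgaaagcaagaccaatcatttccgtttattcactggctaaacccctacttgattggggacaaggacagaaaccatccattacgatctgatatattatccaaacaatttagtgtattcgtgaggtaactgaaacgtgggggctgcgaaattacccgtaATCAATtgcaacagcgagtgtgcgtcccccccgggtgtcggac

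Vax2, the homeobox factor of the ventral retina, measured 10.63, 10.36 and 10.58 in OC1-KO and 10.24, 9.99 and 10.69 in WT. The OC1-KO values were tightly grouped, and WT 3 was above all of them. The means were 10.53 ± 0.14 in OC1-KO and 10.31 ± 0.35 in WT (SD, n = 3 each), which differ by 0.22 with an interval of -0.28 to 0.72 (limma, unadjusted p = 0.332). By embryo number it was 0.39, 0.37 and -0.10, the same order of signs as Vax1.

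**Figure D2:**
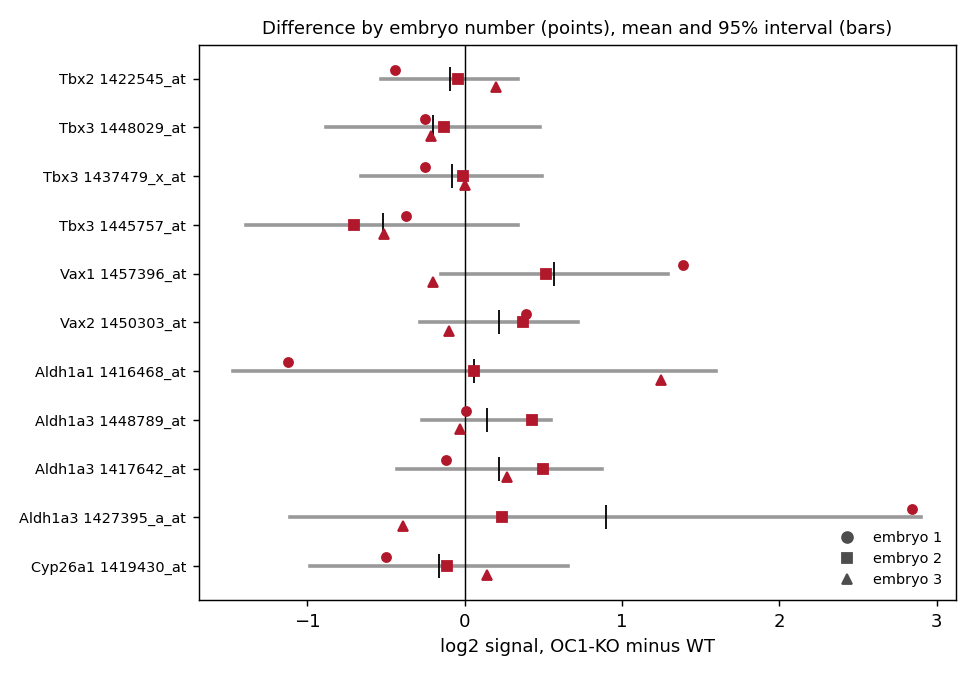
OC1-KO minus WT in log2 signal for the 11 member probe sets over the filter, with 1 point per embryo number, a tick at the mean and a bar for the 95% interval of the limma fit without pairing. Every bar crosses 0, and the points of Aldh1a1 and of Aldh1a3 1427395_a_at are spread over more than those of the other probe sets.

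The balance of dorsal and ventral factors was more widely spread among the 3 OC1-KO than among the 3 WT retinas, a description that was not tested. The mean log2 signal of Tbx2 and Tbx3 minus that of Vax1 and Vax2 was -0.12, 0.71 and 1.15 in OC1-KO embryos 1 to 3 and 1.12, 1.24 and 1.01 in WT embryos 1 to 3. OC1-KO 1 was low on the dorsal and high on the ventral side, with means of 9.65 and 9.77, whereas OC1-KO 3 lay within the WT range on this difference. It averaged 0.58 ± 0.64 in OC1-KO and 1.12 ± 0.12 in WT (SD, n = 3 each), a difference of -0.54, which was -0.19 without OC1-KO 1 and -0.88 without the embryos numbered 3. Probe sets differ in efficiency, so the size within an array has no meaning of its own and only arrays were compared, with no test.

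**Figure D3:**
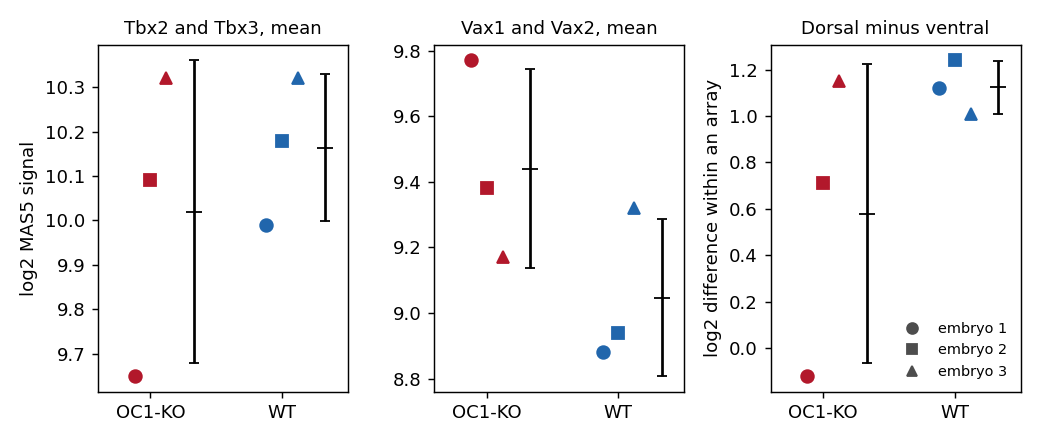
Mean log2 MAS5 signal of Tbx2 and Tbx3, of Vax1 and Vax2, and their difference in each array, OC1-KO left of WT, with points for embryos and bars for the mean and SD (n = 3 each). OC1-KO 1 stands lowest in the difference at -0.12, while the 3 WT embryos lie between 1.01 and 1.24.

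Other genes of the axis did not pass the test either. Of 5 further dorsal genes 3 were measured over the filter, with 2 lower and 1 higher in OC1-KO and a median difference of -0.15. Efnb2, the dorsal ephrin-B ligand, averaged 12.25 ± 0.37 in OC1-KO and 12.51 ± 0.09 in WT, and Bambi, a BMP pseudoreceptor, 9.12 ± 0.15 in OC1-KO and 9.27 ± 0.21 in WT (log2 signal, SD, n = 3 each). All 3 measured ventral genes were higher, with a median of 0.15, where 47.7% of all probe sets lay above 0. Of these, Ntn1, named here after its values were seen, differed by 0.67, -0.11 and -0.17 for embryos 1 to 3. Bmpr1b, a BMP receptor of the ventral retina, averaged 10.30 ± 0.43 in OC1-KO and 10.13 ± 0.46 in WT, while the ephrin receptor Ephb3 averaged 8.88 ± 0.18 in OC1-KO and 8.73 ± 0.23 in WT (SD, n = 3 each). Limma had 0 of these 6 at an unadjusted p under 0.05. Bmp4, from the dorsal list, lay below the filter and is named here after its values were seen. It gave 3.92, 5.07 and 7.11 in OC1-KO and 3.93, 3.15 and 5.48 in WT. The Bmp4 difference was 1.18 (SE 0.98), and by embryo number it was -0.01, 1.92 and 1.63. Pax2, Ephb2 and Gdf6 have no probe set under their own name here and were not analysed.

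Along the other axis of the retina, nasal against temporal, 5 of 7 genes were over the filter, 2 higher and 3 lower in OC1-KO with a median difference of -0.11. The nasal homeobox gene Hmx1 averaged 11.63 ± 0.46 in OC1-KO and 11.49 ± 0.17 in WT, while the ephrin receptor Epha5 averaged 11.19 ± 0.24 in OC1-KO and 11.34 ± 0.30 in WT (SD, n = 3 each). Foxd1, the temporal forkhead factor, is named here after its values were seen. It gave 8.92, 9.13 and 9.71 in OC1-KO and 9.35, 9.41 and 10.19 in WT. Each OC1-KO embryo lay below its numbered partner, and the groups overlapped through OC1-KO 3. The difference of -0.40 (SE 0.30) had an unadjusted p of 0.230 by limma, and 0.0146 with the embryo number as a block.

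Aldh1a1, the retinaldehyde dehydrogenase of the dorsal retina, was widely spread between embryos and had nearly equal means in the genotypes. Its signals were 10.85, 11.64 and 13.57 in OC1-KO and 11.97, 11.59 and 12.32 in WT. OC1-KO 1 was the lowest of the 6 and OC1-KO 3 the highest, a range of 2.72, which was wider than that of 99.3% of the probe sets kept. The median range over those was 0.64. On the linear scale OC1-KO 3 measured 12200 and OC1-KO 1 measured 1850. The means were 12.02 ± 1.40 in OC1-KO and 11.96 ± 0.37 in WT (SD, n = 3 each), with a difference of 0.06 and an interval of -1.47 to 1.60 (limma, unadjusted p = 0.924). By embryo number the difference was -1.12, 0.06 and 1.25, so the mean joined opposite signs. Without OC1-KO 3 it was -0.71, without OC1-KO 1 it was 0.65, and after quantile normalization -0.01.

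The marker sums of other tissues stood in different relations to Aldh1a1. The summed red blood cell signal was, like Aldh1a1, lowest in OC1-KO 1 and highest in OC1-KO 3 with WT 3 next. The order of this sum over the 6 arrays differed from that of Aldh1a1 only in OC1-KO 2 and WT 1, which changed places. Of the list only Hbb-y was over the filter. Of the other 5 genes, Hba-x and Slc4a1 were also lowest in OC1-KO 1, while Hbb-bh1, Alas2 and Epb42 were lowest in WT 1. Epb42 was highest in WT 2. Lens genes were higher in WT 3 than in OC1-KO 3, while Aldh1a1 was higher in OC1-KO 3. Pigment epithelium genes were highest in OC1-KO 3 and WT 3, as Aldh1a1 was, but higher in OC1-KO 1 than in WT 1, where Aldh1a1 was lower. The part of any of these tissues in the Aldh1a1 signal was not tested. Crabp1, a cytosolic retinoic acid binding protein named here after its values were seen, gave 11.05, 11.44 and 12.65 in OC1-KO and 12.21, 11.87 and 11.94 in WT. As with Aldh1a1, OC1-KO 1 was lowest and OC1-KO 3 highest, with WT between them.

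**Figure D4:**
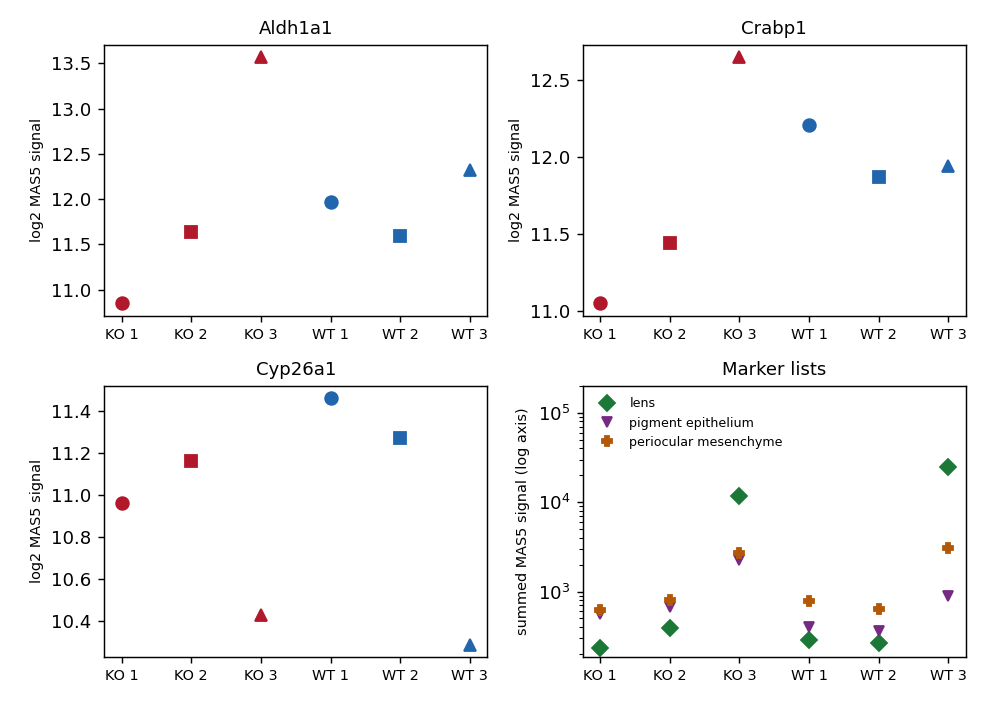
Log2 MAS5 signal of Aldh1a1, Crabp1 and Cyp26a1 in each array, and the summed linear MAS5 signal of the lens, pigment epithelium and periocular mesenchyme marker lists on a log axis, with OC1-KO embryos left of WT embryos. Aldh1a1 and Crabp1 are lowest in OC1-KO 1 and highest in OC1-KO 3, Cyp26a1 is lowest in the embryos numbered 3, and the lens sums are 11732 in OC1-KO 3 and 25070 in WT 3.

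Aldh1a3, which makes retinoic acid in the ventral retina, was close in both genotypes. Its brightest probe set gave 11.32, 11.67 and 11.58 in OC1-KO and 11.31, 11.24 and 11.61 in WT. Embryo 1 and embryo 3 nearly coincided between genotypes, and the difference of 0.14 came from embryo 2, by 0.43. Its interval was -0.27 to 0.55 (limma, unadjusted p = 0.453), the narrowest among the members. On 1417642_at the means were 8.62 ± 0.44 in OC1-KO and 8.40 ± 0.33 in WT (SD, n = 3 each), a difference of 0.22.

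The third Aldh1a3 probe set, 1427395_a_at, whose suffix marks probes shared by transcripts of the same gene, gave 8.06, 7.53 and 8.50 in OC1-KO and 5.22, 7.29 and 8.89 in WT. WT 1 stood far below the other 5. The difference of 0.90 (SE 0.85, limma, unadjusted p = 0.325) was -0.06 without WT 1 and 1.78 without WT 3. All 3 probe sets of Aldh1a3 thus had a difference above 0, by values that did not exceed the spread between embryos.

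Cyp26a1, the retinoic acid hydroxylase whose promoter is printed above, measured 10.96, 11.16 and 10.43 in OC1-KO and 11.46, 11.27 and 10.29 in WT. The embryos numbered 3 were the lowest of both genotypes. The means were 10.85 ± 0.38 in OC1-KO and 11.01 ± 0.63 in WT (SD, n = 3 each), which differ by -0.16 with an interval of -0.98 to 0.66 (limma, unadjusted p = 0.660). By embryo number the differences were -0.50, -0.11 and 0.14. Rarb, the receptor gene that also carries the repeat, gave 8.99, 8.76 and 9.03 in OC1-KO and 8.77, 8.70 and 9.24 in WT. Unlike Cyp26a1 it was highest in the embryos numbered 3, and its difference was 0.02 (SE 0.19). Rarb is named for its promoter and not by its values.

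The values were also set out by embryo number. In a limma fit with genotype and embryo number, the number term had an adjusted p under 0.05 for 1 of the 11 member probe sets, Tbx3 1445757_at (adjusted p = 0.0442), against 5.32% of all probe sets. The next were the brightest Tbx3 probe set (adjusted p = 0.0545) and Cyp26a1 (adjusted p = 0.0747), which missed the threshold. Both embryos numbered 3 lay above the other 4 arrays on 5 of the 11, against 14.9% of all probe sets, namely 2 of Tbx3, 2 of Aldh1a3 and Aldh1a1. They lay below them on 1, Cyp26a1, against 23.5%. The mean over both genotypes of Aldh1a1 was 11.41, 11.62 and 12.95 for embryos 1 to 3, and that of Cyp26a1 was 11.21, 11.21 and 10.36. The embryos numbered 3 also carried the higher lens, mesenchyme, red blood cell, pigment epithelium and ciliary margin sums given above. Of the 5 ciliary margin genes, Msx1 and Ccnd2 passed the number term (adjusted p = 0.0399 for each). Wfdc1, Cdo1 and Mab21l1 did not (adjusted p = 0.18, 0.245 and 0.524). Ccnd2 rose from 9.83 and 9.85 to 11.61 across the OC1-KO embryos, and from 9.48 and 9.59 to 11.01 across the WT embryos. Mab21l1 stood at 11.61 in both OC1-KO 2 and OC1-KO 3, though at 11.91 in WT 3 against 11.52 in WT 2. The ciliary margin sum therefore does not stand for a like rise of all 5 genes. The part of these tissues in the members' values was not tested.

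Other genes that move, bind or convert retinoids lay on both sides of 0. Of 20 listed, 12 were over the filter, 7 higher and 5 lower in OC1-KO, with a median difference of 0.01 and 0 at an unadjusted p under 0.05 by limma. Fabp5, a fatty acid binding protein that can carry retinoic acid, averaged 14.56 ± 0.19 in OC1-KO and 14.56 ± 0.16 in WT. Crabp2, which hands retinoic acid to its receptors, averaged 12.12 ± 0.17 in OC1-KO and 12.21 ± 0.42 in WT (SD, n = 3 each). Rdh10, which makes the retinaldehyde that the Aldh1a enzymes use, averaged 10.64 ± 0.22 in OC1-KO and 10.43 ± 0.09 in WT (SD, n = 3 each; limma, unadjusted p = 0.263). Cyp26b1, the third breakdown enzyme of the family, lay below the filter at 6.04, 4.15 and 6.06 in OC1-KO and 4.05, 3.71 and 4.40 in WT. OC1-KO 2 lay within the WT values and the other OC1-KO embryos above them (exact permutation test, p = 0.2). By embryo number the differences were 1.99, 0.44 and 1.66, all above 0, with an unadjusted p of 0.0601 by limma and of 0.0334 with the embryo number as a block. Aldh8a1, also below the filter, went the other way, with differences of -1.36, -0.94 and -2.35 by embryo number. Its mean difference of -1.55 had an unadjusted p of 0.0628 by limma and of 0.0173 with the block. Ttr, a carrier of thyroid hormone and of the retinol binding protein, had the largest difference of the list over the filter. It passed the filter only through its OC1-KO mean of 7.29, the WT mean being 6.05, which fixed its direction. It gave 7.46, 7.63 and 6.77 in OC1-KO and 6.70, 4.55 and 6.89 in WT. WT 2 stood far below the other 5 arrays, and the difference of 1.24 (SE 0.62) had an unadjusted p of 0.0849 by limma and of 0.0903 with the block. Rdh10, Cyp26b1, Aldh8a1 and Ttr are named after their values were seen.

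Receptors and cofactors of retinoic acid differed by -0.15 to 0.02 over 7 measured genes, 2 above and 5 below 0, with 0 at an unadjusted p under 0.05. The corepressor Nrip1, a retinoic acid target, averaged 11.42 ± 0.07 in OC1-KO and 11.42 ± 0.06 in WT, while the coactivator Ncoa1 averaged 10.93 ± 0.21 in OC1-KO and 10.95 ± 0.15 in WT (SD, n = 3 each).

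Tbx5 and Aldh1a2 were not measured over the filter in either genotype. Tbx5, the T-box factor of the far dorsal retina, gave 6.64, 5.95 and 7.76 in OC1-KO and 7.99, 7.25 and 5.51 in WT on its brighter probe set. Embryo 3 was the highest in OC1-KO and the lowest in WT, with differences of -1.35, -1.30 and 2.25 by number and a mean of -0.13 (SE 0.78). In the embryos numbered 1 and 2 alone it was -1.33 (limma, unadjusted p = 0.0445). The dimmer Tbx5 probe set ran from 2.62 to 6.41 in OC1-KO and from 4.59 to 5.90 in WT.

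Aldh1a2, the retinaldehyde dehydrogenase of the mesenchyme around the eye, gave 3.89, 5.10 and 5.99 in OC1-KO and 4.62, 2.31 and 5.15 in WT, or 14.8 to 63.5 and 4.97 to 35.6 on the linear scale. Both embryos numbered 3 were the highest of the 6, as were the mesenchyme sums. Its difference of 0.96 had an SE of 0.91 and an interval of -1.28 to 3.21. Aldh1a2 lies on chromosome 9 with Onecut1, so a difference carried by the chromosome around the targeted allele and one due to its loss cannot be told apart for this gene. The remaining Tbx3 probe sets, 1439567_at and 1444594_at, ran from 0.21 to 5.42 in OC1-KO and from 0.11 to 5.10 in WT.

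**Figure D5:**
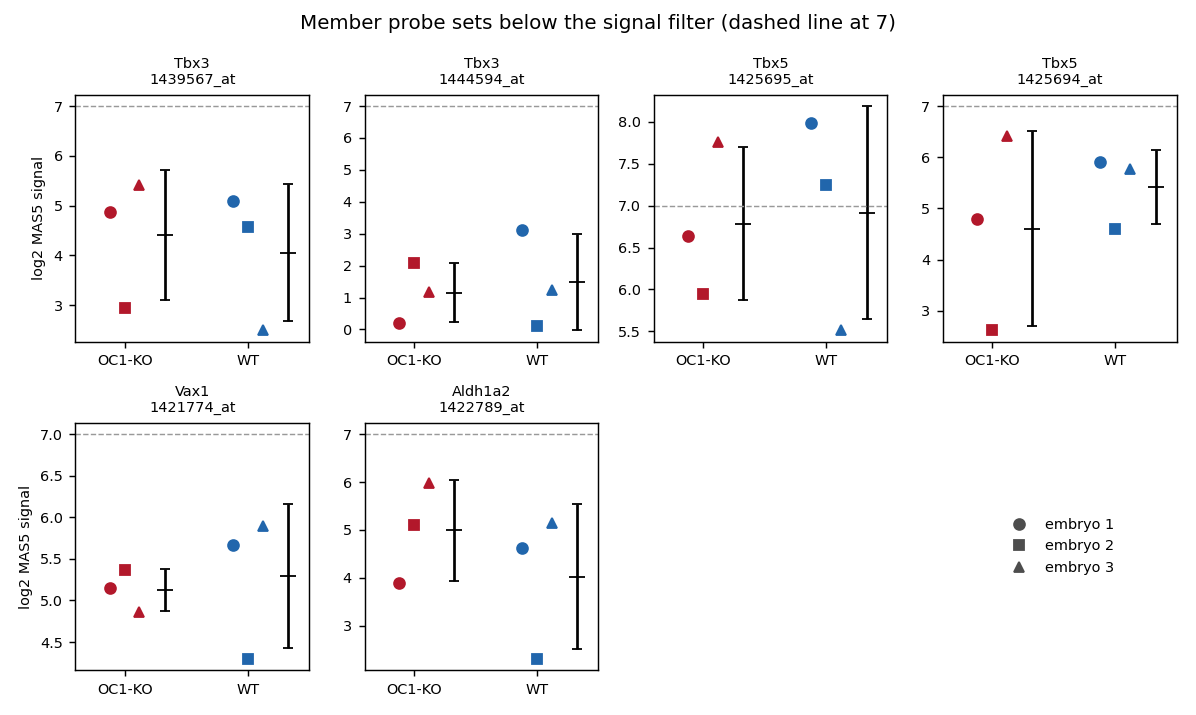
Log2 MAS5 signal of the 6 member probe sets whose mean did not exceed 7 in either genotype, OC1-KO left of WT, each point 1 embryo, bars the mean and SD (n = 3 each), the dashed line the filter. Single embryos cross the line only on Tbx5 1425695_at, at 7.76 in OC1-KO 3 and at 7.99 and 7.25 in WT 1 and WT 2.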

How the data were processed

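Retinal RNA of 6 embryos was amplified, labelled and hybridised to Affymetrix arrays. The authors deposited MAS5 intensity, a linear signal for each probe set after background adjustment, with each array scaled to the same 2% trimmed mean; no MAS5 version is given. Log2 was taken here with no further scaling. Control probe sets (64) were left out and the methods' filter, a mean log2 signal over 7 in either genotype, was applied; between 43.4% and 46.7% of signals on each array exceeded it, and signal over background and the number of arrays limit the precision. Symbols come from the platform annotation, where 34741 of the 34945 probe sets carrying 1 symbol had an Entrez ID in RefSeq's GRCm38.p6 table and none was renamed. Every probe set mapping to a member alone is given, the brightest first as its main probe set. For list genes the main probe set was used.

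Genotypes were compared with limma 3.58.1 (R 4.3.3; lmFit, then eBayes) and Benjamini-Hochberg adjustment over the 20888 kept. Probe sets below the filter were fitted with all others and carry no adjusted p. Exact permutation tests are two-sided. Python 3.11.15, pandas 2.3.3, scipy 1.17.1 and matplotlib 3.10.9 were also used, and the fits were tested on simulated data. After removal of group means, OC1-KO and WT arrays of the same embryo number correlated at 0.51, 0.57 and 0.67. Those of different numbers correlated at -0.44 to -0.04, below 0 on average by construction once the same-number values are positive. The numbers were taken to pair the arrays from these same values, since the labels do not state it, and the fits with the block rest on this.

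Alternatives were the embryo number as a block, the methods' t-test, an intensity trend, other scalings, an added constant, other filters, embryos 1 and 2 alone and each array left out. The members, lists, tests and alternatives were chosen with earlier results of these data known. All members are named; from each pathway list the 2 of smallest p under 0.05 or else the 2 brightest, and from each marker list the 2 brightest.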

Additional observations from a re-analysis of the deposited data

How the results depend on the processing

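In every alternative run (another test, scaling, constant, filter, or set of embryos), 0 probe sets, members included, had an adjusted p under 0.05 between OC1-KO and WT. Of these, 5 (another test or filter) leave a difference of means as it is. Under the other 10, 146 of 170 member differences kept their direction and 24 reversed it, 12 of them over the filter; no member was called in any, and the cause of the changes was not tested.

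At an unadjusted p under 0.05, all probe sets had 77 higher and 133 lower. These became 327 and 586 with the embryo number as a replicate block, 160 and 156 by the methods' t-test, 52 and 69 with an intensity trend, 611 and 694 with no filter, 48 and 69 with the filter at 8, and 252 and 146 in embryos 1 and 2 alone. They ran from 61 (without WT 1) to 222 (without OC1-KO 3) higher and from 85 (without WT 2) to 254 (without OC1-KO 1) lower when 1 array was left out; 134 were higher without WT 3, and 215 and 201 lower without OC1-KO 2 and WT 1. Of the member probe sets 0 became 1 with the pairing block and in embryos 1 and 2 alone, and 0 to 1 with 1 array left out. The block changed no adjusted call.

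With 1 array left out, differences that change sign ran from -0.18 to 0.07 for Tbx2; for Tbx3 from -0.41 to 0.02 (1448029_at), -0.28 to 0.09 (1437479_x_at), -0.42 to 1.09 (1439567_at) and -1.02 to 0.49 (1444594_at); for Tbx5 from -0.84 to 0.40 (1425695_at) and -1.72 to 0.18 (1425694_at); for Vax1 1421774_at from -0.65 to 0.14; for Aldh1a1 from -0.71 to 0.65; for Aldh1a3 1427395_a_at from -0.06 to 1.78; and for Cyp26a1 from -0.52 to 0.07. In embryos 1 and 2 alone the sign turned for Tbx3 1439567_at (-0.93), Vax1 1421774_at (0.28) and Aldh1a1 (-0.53), the last also after quantile normalization (-0.01).

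For the embryo number term, 1111 probe sets and 1 member had an adjusted p under 0.05. These were 1144 and 0 after quantile normalization, 1650 and 2 after median centring, 1905 and 2 with log2(signal + 32), 0 and 0 with no filter, and 2308 and 2 with the filter at 8. The dorsal minus ventral difference stayed between -0.56 and -0.51 under the scalings and the added constant.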
